A study of Mus musculus with 18 samples.

Results

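The genes described here are 10 markers and regulators of the transition between epithelial and mesenchymal cell states: the transcription factors Zeb1, Zeb2, Snai1, Snai2, Twist1 and Twist2, the cell adhesion genes Cdh1, Cdh2 and Epcam, and the intermediate filament gene Vim. Each gene was represented by the probe set, among those annotated with that symbol alone, that had the highest mean level over all arrays. All 10 were found among the 18193 genes measured in this way. RNA came from B6C3F1/N mice, a cross of C57BL/6 and C3H strains that is common in cancer bioassays, in a study of inhaled cobalt metal particles.

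The 3 groups had 6 arrays each. Control lung came from mice given the vehicle only. Spontaneous tumours were lung tumours that arose without cobalt, and cobalt tumours were lung tumours of mice that breathed the metal aerosol. Mice were 5 to 6 weeks old when the study began, and the cobalt concentrations in the study ran from 1.25 to 5 mg/m3 beside a group at 0, with 6 hours of exposure a day on 5 days a week for at most 105 weeks. Tumours were cut away from the surrounding lung and frozen before RNA was extracted, and the control samples were lung tissue. The labels give no dose, sex or age at death for a sample. They also leave unsaid whether each array stands for its own mouse, and the p-values therefore rest on array-to-array spread, part of which may be technical.

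Epithelial cells are held together by adherens junctions, in which E-cadherin, the product of Cdh1, binds its like on the neighbouring cell. In an epithelial to mesenchymal transition, factors of the SNAIL, ZEB and TWIST families lower the transcription of Cdh1 and of other epithelial genes, while N-cadherin (Cdh2) and vimentin (Vim) are gained. Whole lung holds fibroblasts, endothelial cells, smooth muscle and leukocytes as well as epithelium, and several of these cell types transcribe Zeb1, Zeb2, Snai2 and Vim as part of their normal state.

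ZEB and SNAIL factors bind the E-box letters CACCTG, which read CAGGTG on the other strand. RefSeq promoter windows of the GRCm38.p6 build, from 250 bases before to 50 bases after a gene's start, were at hand for 6 of the 10 members, in 9 windows. Both strands were searched for CACCTG, and 2 of the 9 windows held it, those of Epcam and Snai1. The windows of Vim, Twist1 and Twist2 and the 4 windows of Zeb2 held none. Over all 32851 windows in the table, 20.2% held at least 1 match and 2.88% held 2 or more. The sequences with matches are shown because Epcam had the largest rise of the 10 genes and Snai1 is itself one of the factors that bind these letters. Capitals mark the matches.
Epcam, chr17:87635729-87636028, plus strand: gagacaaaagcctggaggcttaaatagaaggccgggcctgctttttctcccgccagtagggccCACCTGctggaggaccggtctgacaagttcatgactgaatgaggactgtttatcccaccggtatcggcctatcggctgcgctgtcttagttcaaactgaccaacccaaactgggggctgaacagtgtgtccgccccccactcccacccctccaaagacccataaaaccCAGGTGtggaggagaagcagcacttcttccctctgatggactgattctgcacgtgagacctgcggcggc
Snai1, chr2:167537945-167538244, plus strand: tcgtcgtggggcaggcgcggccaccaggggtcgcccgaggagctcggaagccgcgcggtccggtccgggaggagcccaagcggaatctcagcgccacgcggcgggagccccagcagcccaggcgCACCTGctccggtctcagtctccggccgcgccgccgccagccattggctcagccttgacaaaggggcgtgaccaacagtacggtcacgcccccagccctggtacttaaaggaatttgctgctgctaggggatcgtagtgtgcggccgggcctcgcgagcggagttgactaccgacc
The Epcam matches begin 187 and 19 bases before the start of the gene, and the Snai1 match begins 126 bases before it. A match is a description of the letters and shows no binding.

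Levels are log2 values made by RMA, a method that corrects, aligns and summarises array signals. A difference of 1 is a 2-fold difference, and levels of different genes cannot be set against each other because probe sets differ in brightness. Array medians lay between 6.32 and 6.45. The first principal component over all genes held 52.8% of the variance and separated controls from tumours, except that cobalt tumour 6 lay between them. That array had a mean correlation of 0.969 with the controls and 0.945 with the other cobalt tumours. The second component held 12.6% and set spontaneous tumours 2 and 6 away from the remaining tumours. The labels of control 6 conflict: its title, source and group label give control lung, and a free-text note names a spontaneous tumour. It was analysed as control lung. Its mean correlation was 0.989 with control arrays and 0.920 with arrays of spontaneous tumours, and leaving it out changed no call of the 10 genes. Xist, the RNA of the inactive X chromosome, was above 10 in 6 controls, 2 spontaneous tumours (4 and 6) and 4 cobalt tumours (2, 3, 5 and 6), and at or below 6.82 in the others, and the study used male and female mice. Markers of alveolar type 2 cells, the surfactant-making epithelium, had mean levels of 12.52 to 12.81 on the control arrays, 12.13 to 13.73 on the spontaneous tumours and 13.38 to 13.57 on the cobalt tumours.

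The first comparison asked how the 10 genes differed between spontaneous tumours and control lung. Of the 10, 2 were higher (Cdh1 and Epcam), 4 were lower (Zeb1, Snai1, Snai2 and Twist2) and 4 did not pass the test (Zeb2, Twist1, Cdh2 and Vim), at a limma adjusted p under 0.05. Among all genes tested 34.6% passed, 16.4% higher and 18.2% lower. The median difference of the 10 was -0.59 on the log2 scale, beside -0.03 over all genes. In 6 of the 10 the spontaneous tumour and control arrays did not overlap, as in 21.1% of all genes.

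The second comparison, of cobalt tumours with the same controls, found 2 genes higher (Cdh1 and Epcam), 7 lower and only Twist1 not passing the test. Of all genes, 34.0% passed, 14.7% higher and 19.3% lower. The median difference of the 10 was -0.96, again beside -0.03 over all genes, and 5 of the 10 did not overlap, as in 18.9% of all genes. Because both tumour groups were set against the same 6 control arrays, the likeness of these lists is not evidence of its own.

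**Figure D1:**
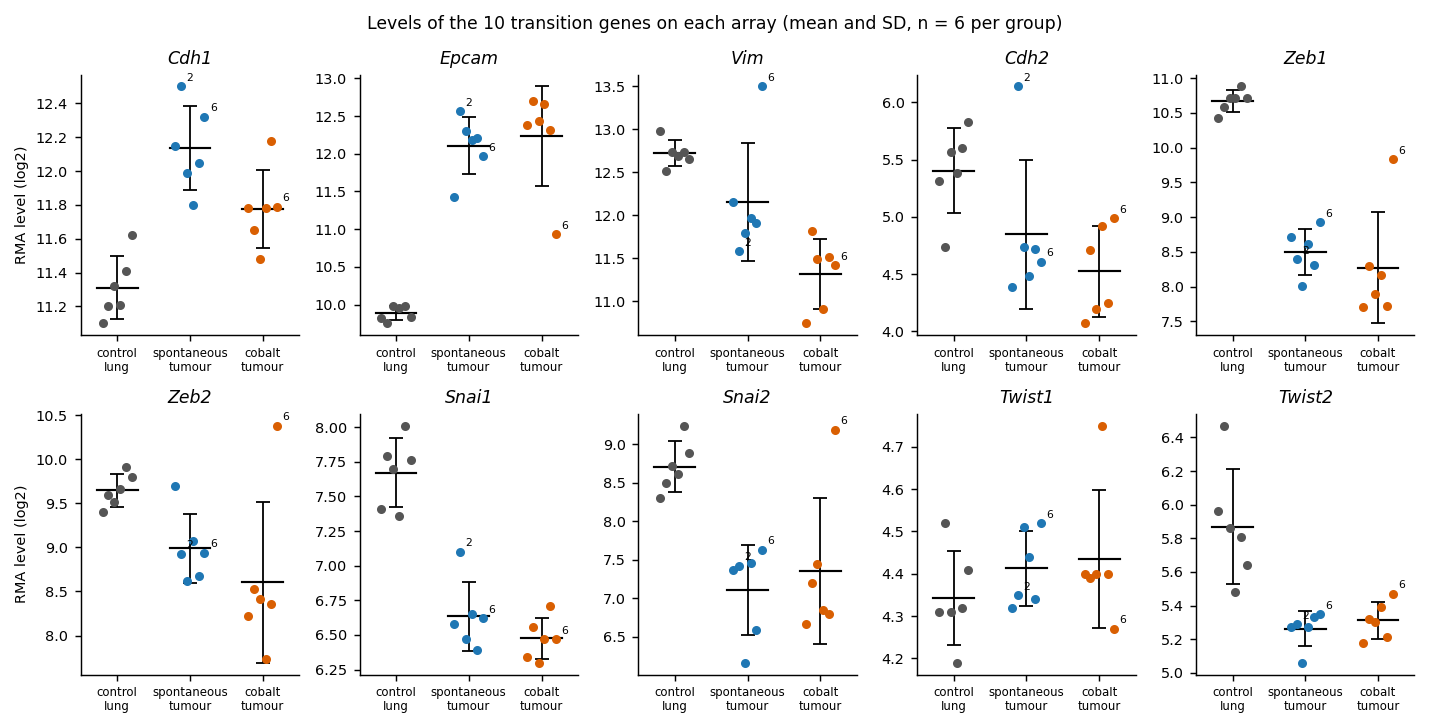
Log2 RMA level (vertical axis) of each of the 10 genes on each array of the 3 groups, with the group mean (long bar) and SD (whiskers), n = 6 arrays per group. Numbers mark spontaneous tumours 2 and 6 and cobalt tumour 6. All 12 tumours lie above every control for Epcam and below every control for Zeb1, Snai1 and Twist2, and cobalt tumour 6 lies nearer to the controls than the other cobalt tumours for Zeb1, Zeb2, Snai2 and Epcam.

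Cdh1 encodes E-cadherin, the adhesion molecule that defines an epithelial cell. Its level in control lung ran from 11.10 to 11.62 (median 11.26), in spontaneous tumours from 11.80 to 12.50 (median 12.10) and in cobalt tumours from 11.48 to 12.18 (median 11.78). Thus 11 of the 12 tumours lay above every control, and cobalt tumour 3 lay within the control range. The mean rose from 11.31 ± 0.19 (SD, n = 6) to 12.13 ± 0.25 in spontaneous tumours, a 1.77-fold rise (0.82 ± 0.13 SE on the log2 scale, adjusted p = 8.03e-05). In cobalt tumours it rose 1.38-fold to 11.78 ± 0.23 (0.47 ± 0.13 SE, adjusted p = 0.00808).

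Epcam encodes the epithelial cell adhesion molecule, a membrane protein of most simple epithelia. Control arrays lay within a narrow band of 9.75 to 9.98 (median 9.90). Spontaneous tumours ran from 11.43 to 12.56 (median 12.19) and cobalt tumours from 10.93 to 12.70 (median 12.40), so every tumour was above every control. The rise was 4.65-fold in spontaneous tumours (2.22 ± 0.24 SE, adjusted p = 3.17e-06) and 5.08-fold in cobalt tumours (2.34 ± 0.24 SE, adjusted p = 1.93e-06). The lowest of the tumours was cobalt tumour 6, and without it the rise in cobalt tumours was 6.09-fold.

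Cdh2 encodes N-cadherin, which replaces E-cadherin in the textbook form of the transition. Its probe set was dim, among the 6064 genes of lowest mean level. Control lung ran from 4.74 to 5.83 (median 5.48), spontaneous tumours from 4.39 to 6.14 (median 4.66) and cobalt tumours from 4.07 to 4.99 (median 4.48). Of the 12 tumours, 8 lay below every control and 1, spontaneous tumour 2, lay above every control. The difference was -0.56 ± 0.27 SE in spontaneous tumours (adjusted p = 0.118), and cobalt tumours were 1.84-fold lower (-0.88 ± 0.27 SE, adjusted p = 0.0158). Without spontaneous tumour 2 the first of these was -0.82 with an adjusted p of 0.00368, and over the arrays with Xist above 10 it was -0.86 (adjusted p = 0.0377).

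Vim encodes vimentin, the intermediate filament protein of mesenchymal cells and of leukocytes and endothelium. Control lung ran from 12.51 to 12.98 (median 12.72). Spontaneous tumours ran from 11.58 to 13.50 (median 11.94), with spontaneous tumour 6 above every control and the other 5 below every control. Cobalt tumours, from 10.74 to 11.82 (median 11.45), all lay below the controls. Vim was 2.65-fold lower in cobalt tumours (-1.41 ± 0.26 SE, adjusted p = 0.000365) and differed by -0.57 ± 0.26 SE in spontaneous tumours (adjusted p = 0.0943). That second value was -0.73 with cyclic loess normalization (adjusted p = 0.0346), -0.84 without spontaneous tumour 6 (adjusted p = 0.000877), -0.05 with the level of Y-linked RNA as a covariate (adjusted p = 0.883) and 0.01 over the arrays with Xist above 10 (adjusted p = 0.981), which keep only spontaneous tumours 4 and 6.

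Zeb1 and Zeb2 encode zinc-finger and homeodomain repressors that bind E-boxes of epithelial genes and are themselves held down by the miR-200 family. Zeb1 lay between 10.42 and 10.88 (median 10.71) in control lung, between 8.01 and 8.93 (median 8.50) in spontaneous tumours and between 7.71 and 9.83 (median 8.03) in cobalt tumours. Every tumour was below every control. Zeb1 was 4.53-fold lower in spontaneous tumours (-2.18 ± 0.28 SE, adjusted p = 1.31e-05) and 5.29-fold lower in cobalt tumours (-2.40 ± 0.28 SE, adjusted p = 4.87e-06). The highest tumour was cobalt tumour 6, and without it the cobalt difference was 6.57-fold.

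Zeb2 lay between 9.40 and 9.91 (median 9.62) in control lung, between 8.62 and 9.70 (median 8.94) in spontaneous tumours and between 7.73 and 10.38 (median 8.39) in cobalt tumours. Cobalt tumour 6 lay above every control, spontaneous tumour 1 lay within the control range and the other 10 tumours lay below it. The mean difference in spontaneous tumours was -0.66 ± 0.32 SE (adjusted p = 0.12), and in cobalt tumours Zeb2 was 2.06-fold lower (-1.04 ± 0.32 SE, adjusted p = 0.0164). Without cobalt tumour 6 the cobalt difference grew to 2.63-fold (adjusted p = 8.64e-06), and the spontaneous difference, of the same size, passed the test with an adjusted p of 0.00579. It also passed in 4 other settings, among them the mean of all 5 probe sets (-0.85, adjusted p = 0.0153). With Y-linked RNA as a covariate the adjusted p of the cobalt difference was 0.0501, and over the arrays with Xist above 10 it was 0.137.

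Snai1 encodes SNAIL, the zinc-finger repressor first tied to loss of E-cadherin. It lay between 7.36 and 8.01 (median 7.73) in control lung, between 6.39 and 7.10 (median 6.60) in spontaneous tumours and between 6.30 and 6.71 (median 6.47) in cobalt tumours. No tumour reached the lowest control. Snai1 was 2.05-fold lower in spontaneous tumours (-1.04 ± 0.13 SE, adjusted p = 8.39e-06) and 2.29-fold lower in cobalt tumours (-1.20 ± 0.13 SE, adjusted p = 2.13e-06).

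Snai2 encodes SLUG, its close relative. It lay between 8.30 and 9.24 (median 8.66) in control lung, between 6.16 and 7.63 (median 7.39) in spontaneous tumours and between 6.66 and 9.19 (median 7.02) in cobalt tumours. Cobalt tumour 6 lay within the control range and the other 11 tumours lay below it. Snai2 was 3.05-fold lower in spontaneous tumours (-1.61 ± 0.36 SE, adjusted p = 0.00214) and 2.57-fold lower in cobalt tumours (-1.36 ± 0.36 SE, adjusted p = 0.00701). Over the arrays with Xist above 10 the differences were -1.17 and -1.06, with adjusted p of 0.101 and 0.0585, so neither passed the test there.

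Twist1 and Twist2 encode helix-loop-helix factors of mesoderm and of fibroblasts, and both probe sets were among the 6064 dimmest. Twist1 lay between 4.19 and 4.52 in control lung, between 4.32 and 4.52 in spontaneous tumours and between 4.27 and 4.75 in cobalt tumours, so the 3 groups overlapped. Its differences from the controls were 0.07 (95% interval -0.10 to 0.24, adjusted p = 0.516) and 0.09 (-0.07 to 0.26, adjusted p = 0.402). At such levels a probe set may carry no signal of the gene, and detection calls were not used here. Twist2 lay between 5.48 and 6.47 in control lung, between 5.06 and 5.35 in spontaneous tumours and between 5.18 and 5.47 in cobalt tumours. Every tumour was below every control for Twist2, which was 1.52-fold lower in spontaneous tumours (-0.61 ± 0.12 SE, adjusted p = 0.000908) and 1.47-fold lower in cobalt tumours (-0.56 ± 0.12 SE, adjusted p = 0.00178). Over the arrays with Xist above 10 the adjusted p of the spontaneous difference was 0.0663.

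**Figure D2:**
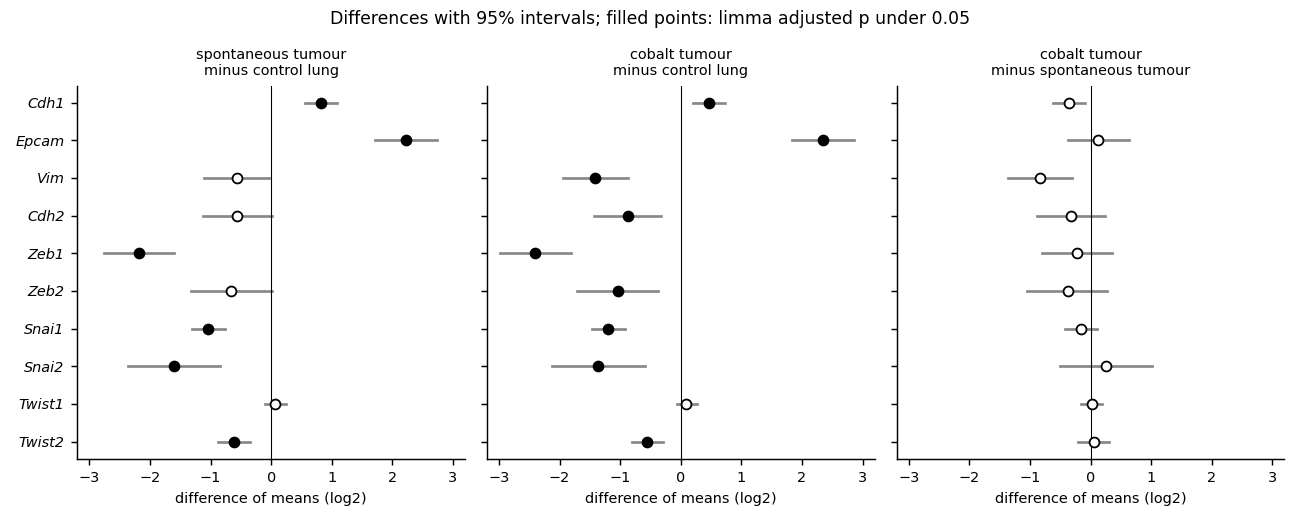
Difference of group means on the log2 scale (horizontal axis, point) with its 95% interval (line) for the 10 genes (rows) in 3 comparisons, 6 arrays per group. Filled points passed the limma test at an adjusted p under 0.05: 6 genes in spontaneous tumours and 9 in cobalt tumours against control lung, and none of the 10 between the tumour groups.

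The third comparison set the tumour groups against each other. None of the 10 genes passed the test in limma, with 2 under an unadjusted p of 0.05. The share of all genes under that value is not given here, so the 2 cannot be read as a result. An exact permutation test with the same adjustment called 0 of the 18193 genes. With 6 arrays per group, its smallest p-value passes the adjustment only where many genes reach it. It therefore could not decide about the 10. Of all genes 0.0824% passed in limma, which is 15 genes. The tumour groups overlapped for each of the 10, while 0.616% of all genes did not overlap. Vim was the member with the largest difference, 1.78-fold lower in cobalt than in spontaneous tumours (-0.83, 95% interval -1.37 to -0.30, adjusted p = 0.207). It passed the test only with Y-linked RNA as a covariate (-1.08, adjusted p = 0.0343), and over all 30 alternatives its adjusted p ran from 0.0343 to 0.699. Cdh1 was 1.28-fold lower in cobalt tumours (-0.36, interval -0.62 to -0.09, adjusted p = 0.272).

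For the other 8 genes the 95% interval of the difference between the tumour groups included 0. The intervals ran from -0.80 to 0.36 for Zeb1, from -1.05 to 0.28 for Zeb2, from -0.42 to 0.10 for Snai1 and from -0.51 to 1.01 for Snai2. They were -0.15 to 0.19 for Twist1, -0.21 to 0.31 for Twist2, -0.89 to 0.24 for Cdh2 and -0.38 to 0.64 for Epcam. Snai2 and Zeb2 therefore allowed differences of about 1 log2 unit, while the dim Twist1 had the narrowest interval.

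Several members had more than 1 probe set, 22 in all. Of these 22, 2 were higher and 10 lower in spontaneous tumours, and 3 were higher and 15 lower in cobalt tumours. Over all 34945 probe sets with 1 symbol, 33.1% passed in spontaneous tumours (16.7% higher and 16.4% lower) and 33.1% in cobalt tumours (15.9% higher and 17.2% lower). All 5 Zeb2 probe sets were lower in cobalt tumours, by 0.99 to 1.59 log2 units, and 3 of the 5 were lower in spontaneous tumours, a call that the brightest one missed. Zeb1 had 3 of 4 probe sets lower in each tumour group, and the remaining one differed by -0.14 and -0.07. Both probe sets of Snai2 were lower in each tumour group, and both of Cdh2 were called lower in cobalt tumours, with neither called in spontaneous tumours.

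Probe sets disagreed for Vim and Epcam. The Vim probe set described above was the only one of 3 to be called in cobalt tumours. The other two differed by -0.62 (adjusted p = 0.0555) and -0.73 (adjusted p = 0.0502) there and by -0.01 and -0.04 in spontaneous tumours. The second Epcam probe set was higher by 0.33 in cobalt tumours (adjusted p = 0.0137) and differed by 0.23 in spontaneous tumours (adjusted p = 0.0723), far less than the 2.34 and 2.22 of the brighter one.

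**Figure D3:**
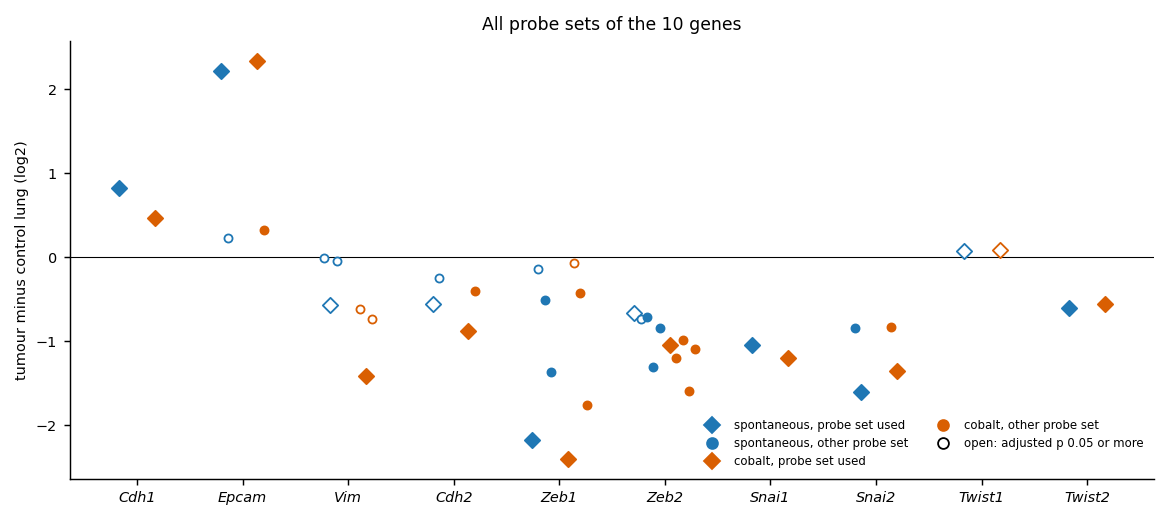
Tumour minus control lung on the log2 scale (vertical axis) for all 22 probe sets of the 10 genes, in spontaneous (blue) and cobalt (orange) tumours. Diamonds are the probe sets used for the genes, circles the others, and open symbols had an adjusted p of 0.05 or more. All 5 Zeb2 probe sets lie below 0 in both tumour groups, and the 3 Vim probe sets spread from -1.41 to -0.62 in cobalt tumours.

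Whether the members varied together with Cdh1 among tumours was examined over the 12 tumour arrays, with 9 relations and a permutation test. Only Snai1 passed: Cdh1 and Snai1 were positively related (Pearson's r = 0.74, permutation p = 0.00394, adjusted p = 0.0355), while Spearman's rho was 0.73 (permutation p = 0.00971, adjusted p = 0.0874). Spontaneous tumours 2 and 6 lay farthest from the median of Cdh1, and without them r was 0.52 and no longer passed (adjusted p = 0.756). The call was also lost without cobalt tumour 6 (r = 0.74, adjusted p = 0.0651) and with cyclic loess (r = 0.71, adjusted p = 0.0859). Within spontaneous tumours r was 0.67 (exact permutation p = 0.158) and within cobalt tumours 0.79 (exact permutation p = 0.0694), with 6 arrays each.

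The relation of Zeb1 with Cdh1 over the same 12 arrays did not pass the test (r = 0.12, permutation p = 0.71, rho = 0.39, p = 0.21). For Vim r was 0.46 (permutation p = 0.132, adjusted p = 0.396) and for Cdh2 0.51 (permutation p = 0.091, adjusted p = 0.396), which fell to -0.01 without spontaneous tumours 2 and 6. The other 5 relations had r between -0.13 and 0.19 and an adjusted p of 0.806. Snai1 was thus the only factor whose relation with Cdh1 passed. Those of Snai2, Twist1 and Twist2 had a negative r (-0.08, -0.10 and -0.13) and did not pass.

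**Figure D4:**
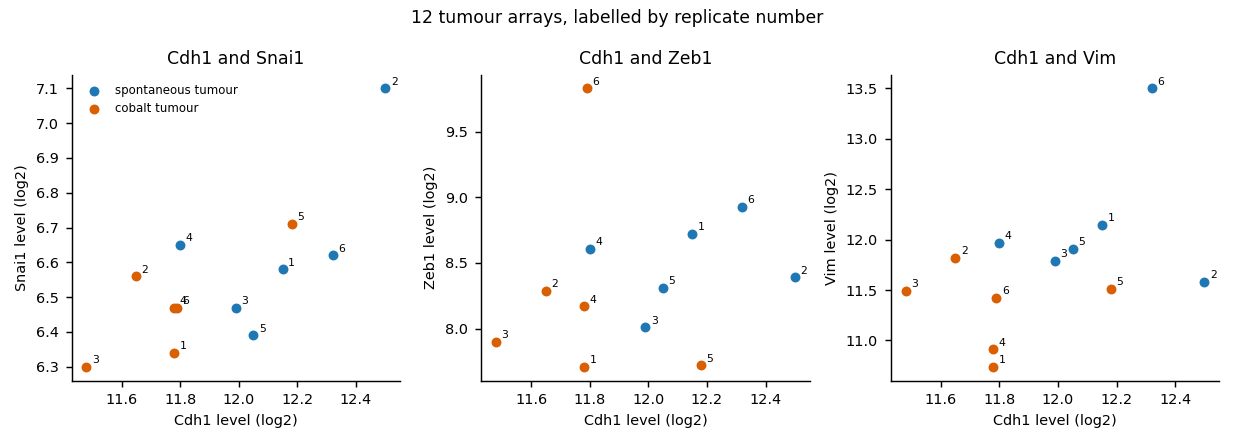
Levels of Snai1, Zeb1 and Vim (vertical axes, log2) against Cdh1 (horizontal axis, log2) on 12 tumour arrays, spontaneous in blue and cobalt in orange, with replicate numbers. Snai1 rises with Cdh1 (r = 0.74), with spontaneous tumour 2 highest in both, whereas Zeb1 (r = 0.12) and Vim (r = 0.46) show no relation that passed the test.

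Most of the listed markers of stromal cell types were lower in the tumours. Their counts are to be read beside the 18.2% and 19.3% of all genes called lower in spontaneous and cobalt tumours. Of 11 fibroblast markers 10 were lower in each tumour group, with medians of -3.01 in spontaneous and -2.80 in cobalt tumours, and their mean level was 10.23 to 10.76 on control arrays, 6.60 to 8.86 on spontaneous and 6.73 to 9.90 on cobalt tumours. The fibroblast transcription factor Tcf21 was 26.4-fold and 21.5-fold lower, and the next marker, Dcn, 2.09-fold and 2.37-fold lower. Dcn passed in neither tumour group over the arrays with Xist above 10. Matrix genes outside this list were split. The collagens Col1a1 and Col3a1 were 2.05-fold and 1.82-fold higher in spontaneous tumours and not called in cobalt tumours. Col1a2 and Col5a1 were called in neither, and Sparc and Lox were lower in both. These matrix genes were named after their values were seen. All 12 endothelial markers were lower in each tumour group, and their mean level was 11.16 to 11.55 on controls, 7.94 to 9.30 on spontaneous and 7.88 to 10.36 on cobalt tumours. Pecam1 was 8.43-fold and 7.98-fold lower, and Cdh5, the cadherin of endothelium, 6.49-fold and 5.84-fold lower.

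Of 10 markers of smooth muscle and pericytes, 9 were lower and 1 higher in each tumour group, with medians of -1.17 and -1.42. The myosin Myh11 was 8.34-fold and 8.14-fold lower. The marker that rose in spontaneous tumours was the pericyte gene Rgs5, 12.2-fold higher (limma adjusted p = 4.9e-08), the largest change of the list there. It was named after its values were seen. On cobalt tumour 6, the array with the highest Zeb1, Zeb2 and Snai2 and the lowest Epcam of the cobalt tumours, the fibroblast mean was 9.90 and the endothelial mean 10.36, each the highest of the 12 tumours. Its means of alveolar type 1 (12.29), club cell (13.86) and ciliated cell (8.21) markers, all epithelial, were also the highest of the 12 tumours. The part of any of these cell types in the members' differences was not tested. In bulk tissue, fewer cells of a type and less RNA per cell cannot be told apart.

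Leukocyte markers did not move as one. Of 11 macrophage markers 7 rose in spontaneous tumours (median 1.15), beside 16.4% of all genes. In cobalt tumours 3 rose and 2 fell (median 0.55), beside 14.7% and 19.3% of all genes. With all arrays in the fit, 0 of the 11 were called between the tumour groups. The lysosomal protein Cd68 rose 3.75-fold and 2.39-fold. The growth factor receptor Csf1r fell 1.76-fold in cobalt tumours and differed by -0.39 in spontaneous tumours (adjusted p = 0.0952). Of 9 T and NK cell markers 7 fell in spontaneous and 8 in cobalt tumours, and with cyclic loess the spontaneous count was 4. Over the arrays with Xist above 10, 6 macrophage markers rose in cobalt tumours.

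**Figure D5:**
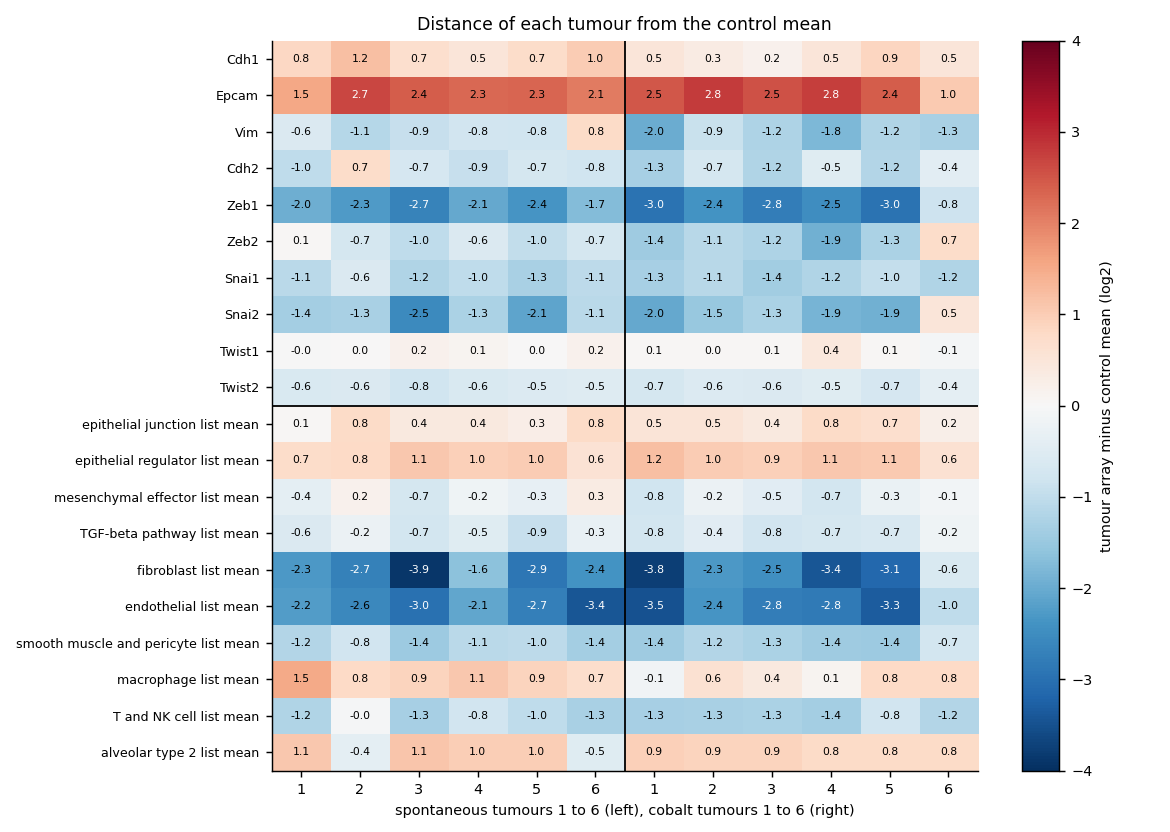
Distance of each tumour array (columns) from the mean of the 6 control arrays, in log2 units, for the 10 genes and for the mean level of 10 of the gene lists (rows); red is above the controls and blue below. Cobalt tumour 6 is nearest to the controls for Zeb1 and for the fibroblast and endothelial lists, and Epcam is above the controls in all 12 tumours.

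Lists of further genes of the pathway gave the setting of these changes, each count to be read against the shares of all genes given above. Among 24 measured genes of epithelial junctions, 11 rose and 2 fell in spontaneous tumours (median 0.43), and 10 rose and 2 fell in cobalt tumours (median 0.34). The tight junction claudin Cldn4 was 4.07-fold and 6.47-fold higher, and the claudin Cldn7 2.58-fold and 2.10-fold higher. The desmosomal cadherin Dsg2 was 4.12-fold higher in cobalt tumours (adjusted p = 0.00841) and differed by 1.41 in spontaneous tumours (adjusted p = 0.0603). The scaffold Tjp1, also called ZO-1, was 1.71-fold and 1.70-fold lower, and plakoglobin, Jup, 1.59-fold and 1.65-fold lower. Without spontaneous tumours 2 and 6 the count that rose in spontaneous tumours was 7, and Cldn4 no longer passed there. With cyclic loess, 4 of the 24 fell in cobalt tumours.

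The list of epithelial regulators had the largest share of rises among the 6 pathway lists. Beside factors that maintain epithelial identity it holds surface proteases, their inhibitors and trafficking genes (Spint1, Spint2, Prss8, St14, Rab25 and Ap1m2). Each of these rose in both tumour groups, whereas the factors Grhl1, Grhl3, Ovol1, Ovol2 and Foxa1 were called in neither. These genes were named outside the rule after their values were seen. Of 21, 14 rose and 1 fell in spontaneous tumours (median 1.00), and 15 rose and 1 fell in cobalt tumours (median 1.05). The ETS factors Ehf (5.63-fold and 3.67-fold) and Elf5 (3.83-fold and 5.84-fold) and the RNA-binding protein Rbm47 (2.98-fold and 3.68-fold) were higher in both. The splicing factor Esrp1, named outside the rule after its values were seen because ZEB factors are known to repress it, was 2.23-fold and 2.86-fold higher. Klf4 was the one that fell, 3.38-fold and 2.25-fold. Elf5 in spontaneous tumours missed the threshold in the exact permutation test (adjusted p = 0.0768).

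Genes of mesenchymal matrix, motility and contraction were split. Among 26, 6 rose and 8 fell in spontaneous tumours (median 0.04), and 2 rose and 8 fell in cobalt tumours (median -0.34). The hyaluronan receptor Cd44 rose 2.68-fold and 1.58-fold and the integrin Itgav 1.75-fold and 1.70-fold. The membrane protease Mmp14 rose 2.10-fold in spontaneous tumours and differed by 0.58 in cobalt tumours (adjusted p = 0.0941). The mesenchymal cadherin Cdh11 was 5.99-fold and 4.36-fold lower, and the actin-binding protein Tagln of smooth muscle 4.39-fold and 3.99-fold lower. The rise of Cd44 in cobalt tumours, with an adjusted p of 0.0261, missed the threshold in 9 of the alternatives, among them the arrays with Xist above 10 (adjusted p = 0.0574). Without spontaneous tumours 2 and 6, 3 of the 26 rose in spontaneous tumours, and over the arrays with Xist above 10, 4 fell. In cobalt tumours 1 rose with cyclic loess and over the arrays with Xist above 10.

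Of 17 other transcription factors tied to the transition, 3 rose and 5 fell in each tumour group. Id2, an inhibitor of helix-loop-helix factors, was 6.07-fold and 6.48-fold higher, whereas its relative Id3 was 2.37-fold and 2.71-fold lower. Sox9, a factor of the embryonic lung tip, was 4.99-fold and 4.93-fold higher, and the E protein Tcf4 was 2.48-fold and 2.72-fold lower. Without cobalt tumour 6, and also without spontaneous tumours 2 and 6, 5 rose in cobalt tumours.

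The next list held corepressors and turnover factors that act with or on SNAIL and ZEB proteins. Of 13, 6 rose in spontaneous and 5 in cobalt tumours (medians 0.26 and 0.22) and 0 fell at an adjusted p under 0.05. The spontaneous count depends on the normalization: with cyclic loess 2 rose and 1 fell, and without spontaneous tumours 2 and 6, 4 rose and 1 fell. The histone methyltransferase Ezh2 was 3.09-fold and 2.78-fold higher. The kinase Gsk3b, which marks SNAIL for breakdown, was 1.40-fold and 1.57-fold higher, although the spontaneous value (adjusted p = 0.0284) missed the threshold in 12 of the alternatives.

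The list of genes of the TGF-beta pathway, a well-known inducer of the transition, had more falls than rises. It holds inhibitors of the pathway as well as its ligands and receptors, so the counts give no direction of signalling. Of 26 genes, 5 rose and 10 fell in spontaneous tumours (median -0.25), and 4 rose and 14 fell in cobalt tumours (median -0.42). The inhibitory signal transducer Smad6 was 10.9-fold and 9.08-fold lower, and the matrix protein Ltbp4, which binds latent TGF-beta, 7.93-fold and 8.10-fold lower. The receptor Tgfbr1 was 2.56-fold and 2.95-fold higher and the corepressor Tgif1 4.44-fold and 4.13-fold higher. Pmepa1, a feedback inhibitor, rose 2.70-fold in spontaneous tumours and differed by 0.57 in cobalt tumours (adjusted p = 0.221). Between the tumour groups, 0 of the 127 measured genes of these 6 lists passed the limma test, with 17 under an unadjusted p of 0.05 (10 in the exact permutation test). Those unadjusted counts also stand without the share of all genes. Without cobalt tumour 6, 2 passed, Tgfb1 (-0.81, adjusted p = 0.0468) and Smurf1 (0.94, adjusted p = 0.0493), and without spontaneous tumour 4, 3 passed, Tgfb1 (-0.87, adjusted p = 0.0331), Postn (-1.10, adjusted p = 0.0423) and Tgfbr3 (1.48, adjusted p = 0.0423). These genes were named after their values were seen.

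Genes whose pattern was most like a member's were found by Pearson's r over the 18 arrays, among genes other than the 6064 dimmest. All such values include the distance between controls and tumours that the arrays share, so they are descriptions without a test. The nearest to Zeb1 were Tbx2 (r = 0.987), Zcchc24 (r = 0.986) and 2310034G01Rik (r = 0.984). Zeb2 was nearest to Afap1l2 (r = 0.942), Mertk (r = 0.940) and Slc41a2 (r = 0.936), and Vim to Slc29a1 (r = 0.920), Col6a3 (r = 0.878) and Yars (r = 0.875). Cdh1 was nearest to Hsd17b12 (r = 0.914), Ap1s1 (r = 0.907) and Rala (r = 0.906), and Epcam to Cks1b (r = 0.973), Tgif1 (r = 0.971) and Bag2 (r = 0.969). Col6a3, a collagen chain, was one of the 15 genes that differed between the tumour groups, 1.74-fold lower in cobalt tumours (-0.80, limma adjusted p = 0.0288). It was picked for its likeness to Vim over these same arrays, so its direction adds nothing about the Vim difference.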

How the data were processed

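RNA from 18 lung and lung tumour samples was hybridised to a 1-colour Affymetrix mouse 3' array. The authors deposited log2 values, and the submitters' processing notes name RMA as the tool; its version is not given in the sources used here. RMA can understate changes of dim probe sets. Of 45101 probe sets, 34945 had 1 gene symbol, and the one with the highest mean stood for each of 18193 genes. Groups came from titles, sources and group labels, also for control 6, whose free-text description differs from them. Differences were tested with limma 3.58.1 in R 4.3.3 (lmFit, eBayes), in 1 two-sided fit over all 18 arrays with group as the only factor and Benjamini-Hochberg adjustment over all genes, at 0.05. The fit was tested on simulated data. ORIOGEN, named in the series' design text, was not run. Relations with Cdh1 used 100000 permutations (SciPy 1.17.1).

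Named were the 10 members, up to 2 genes per list, direction and tumour comparison with the largest change, and the 3 genes most like each of 5 members. The first 2 markers of a cell type could be named, and not all of them were. The members, lists and tests were chosen with earlier results of these data known. Of 229 list entries, 10 were not analysed here. The 30 alternatives covered normalization, filters, probe sets, model, Y-linked RNA, Xist, permutation and each array left out.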

Additional observations from a re-analysis of the deposited data

Results flagged for a closer look

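Single arrays lay far from the other 5 of their group, by Dixon's 95% criterion, in 18 of 138 checks of a named gene in a group, where chance gives about 1 in 20. Of these, 9 concerned members and 8 came from cobalt tumour 6. On that array Zeb1 (9.83, the next cobalt tumour at 8.29), Zeb2 (10.38, next 8.53) and Snai2 (9.19, next 7.44) were above the other cobalt tumours, while Epcam (10.93, next 12.31) was below them. The same array was high for the TGF-beta binding protein Ltbp4 (9.41) and the smooth muscle myosin Myh11 (8.60) and low for Tgif1 (8.56) and Esrp1 (9.35). Its endothelial and fibroblast marker means, given in the report, were also the highest of the tumours, as were its alveolar type 1, club cell and ciliated cell means. The part of stromal or epithelial cell types in these values was not tested.

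Spontaneous tumour 2 stood above its group for Snai1 (7.10, next 6.65), Cdh2 (6.14, next 4.74) and the T cell gene Cd3e (7.65), and below it for Id2 (11.15). Spontaneous tumour 6 stood above its group for Vim (13.50, next 12.15). Twist1 was high on cobalt tumour 4 (4.75) and Twist2 low on spontaneous tumour 3 (5.06), both among dim probe sets. The junction scaffold Tjp1 was low on spontaneous tumour 5 (10.48), Smad6 high on spontaneous tumour 4 (8.96) and Cd44 high on control 1 (12.09).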

How the results depend on the processing

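The direction and the call of Cdh1, Epcam, Zeb1 and Snai1 against control lung held in all 30 alternatives, with 12 settings and 18 fits that each left out 1 array. The count of members called between the tumour groups was 0 except with Y-linked RNA as a covariate, where it was 1 (Vim). The arrays with Xist above 10 keep only 2 spontaneous and 4 cobalt tumours. On them 4305 genes were called in spontaneous tumours instead of 6295, and 5050 in cobalt tumours instead of 6183. A call or count lost there need not mean a smaller difference. Over these arrays Vim in spontaneous tumours was 0.01 and Twist1 between the tumour groups -0.11, and with cyclic loess Twist1 was -0.0009 there. Leaving out 1 array at a time, the differences between the tumour groups ran from -0.12 to 0.39 for Snai2, from -0.04 to 0.05 for Twist1 and from -0.01 to 0.39 for Epcam, none of them called. Correlations with Cdh1 were rerun only with cyclic loess, probe set means, without spontaneous tumours 2 and 6 and without cobalt tumour 6. That of Snai1 missed the threshold in 3 of these settings and passed only with probe set means. Cdh1 and Snai1 have 1 probe set each, so those means repeat the main values. Without spontaneous tumours 2 and 6 the correlation turned to -0.02 for Zeb1 and -0.01 for Cdh2. It turned to 0.11 for Snai2 without cobalt tumour 6 and to 0.01 for Twist2 with cyclic loess. The cause of these shifts was not tested. Leaving out the 6064 dimmest genes removed Twist1, Twist2 and Cdh2.

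Same-numbered arrays did not deviate together (correlations from -0.34 to 0.19), which gave no sign that the numbers pair the samples. This check cannot exclude that some of them share an animal or a batch. With the replicate number as a block no member call changed, and over all genes 2736 were higher and 3062 lower in spontaneous, 2476 and 3308 in cobalt tumours, and 1 differed between the tumour groups instead of 15, a count that ran from 0 to 82 over the alternatives and was 82 without cobalt tumour 6 and 65 without spontaneous tumours 2 and 6. Brightness over background was not measured here and limits the dim Twist1, Twist2 and Cdh2.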

Other observations

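Markers of the lung's own epithelial cell types went different ways beside the rise of Cdh1 and Epcam. Of 8 markers of alveolar type 1 cells, the flat cells of gas exchange, 6 fell in each tumour group (medians -1.85 and -1.77). Of 7 ciliated cell markers 7 fell in spontaneous and 6 in cobalt tumours (medians -1.94 and -1.74). Of 6 club cell markers 3 fell in spontaneous and 5 in cobalt tumours, and 1 rose in each. Of 7 alveolar type 2 markers 3 rose in spontaneous and 5 in cobalt tumours, and none was called lower. The first of these type 2 counts was 7 without spontaneous tumours 2 and 6, and 0 over the arrays with Xist above 10. With cyclic loess 1 rose in spontaneous and 3 in cobalt tumours, and without spontaneous tumours 2 and 6 the cobalt count was 7. No club cell marker rose in spontaneous tumours over the arrays with Xist above 10, or in cobalt tumours without cobalt tumour 6, and in the latter 1 ciliated cell marker rose.

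Of 6 mesothelial markers 4 fell in each tumour group, and of 5 B cell markers 3 fell in each. Over the arrays with Xist above 10, 0 of the 5 B cell markers were called in spontaneous tumours. Their median there was -1.08, beside -1.26 over all arrays. Between the tumour groups, 1 of the 92 cell type markers measured passed the test, the ciliated cell gene Cfap52, which was 4.93-fold higher in cobalt tumours (limma adjusted p = 0.0138) and was named after its values were seen. It did not pass over the arrays with Xist above 10, and without spontaneous tumours 2 and 6, 1 macrophage marker was lower in cobalt than in spontaneous tumours.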
